A study of Mus musculus with 2 samples.

Results

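The RNA of 10 transcription factor genes of the macrophage lineage was described in nucleoplasmic RNA of mouse bone marrow-derived macrophages. The genes were Spi1, Fli1, Etv6, Ets2, Elf1 and Elf4 of the ETS family, with Runx1, Ikzf1, Zeb2 and Bhlhe40 from 4 other families. They were taken by gene name in GENCODE M21, the annotation of the deposited tables, and are 10 of the 55536 annotated genes and of the 22028 protein-coding genes measured. Their 70 annotated transcript models were used as well. The rule by name used no measured value, but the genes were chosen with earlier results of these data known.

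The macrophages came from C57BL/6J mice and had received Lipid A, the TLR4-binding moiety of lipopolysaccharide, at 100 ng/ml for 40 min. RNA of the nucleoplasm was depleted of ribosomal RNA and sequenced as total RNA. The series holds 1 group with 2 biological replicates, made from 1 µg and 500 ng of RNA, and both carry the same donor identifier. Nothing in the labels gives separate cultures or animals, so the spread between the replicates may be partly technical. The replicates also differ in RNA input, and these effects cannot be told apart. The gene tables held 19630046 and 18434601 expected counts. No genotype other than the wild-type strain is labelled, and sex and age were not collected. Untreated cells, other times and other fractions were not analysed here, so every value below is a level and not a response, and no test between conditions exists.

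Some of these factors are known to set or hold macrophage identity. PU.1, the product of Spi1, binds purine-rich GGAA sites in myeloid enhancers and works with RUNX1, which pairs with the subunit CBFβ. FLI1, ETS2, ELF1 and ELF4 share the ETS DNA-binding domain with PU.1, and ETV6 is an ETS repressor. Ikaros, encoded by Ikzf1, is a zinc finger factor that recruits the NuRD chromatin remodelling complex. ZEB2 and BHLHE40 are mostly repressors that bind E-box sequences, and both are known to shape macrophage states. Several of the genes have more than one promoter, and nuclear RNA also holds unspliced and prematurely ended transcripts, so the models behind each level matter here.

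The models with the most RNA in Zeb2 and Runx1 part from the full-length ones at annotated exon junctions, which are shown first. Reads over the junctions themselves were not counted here. Zeb2 (ENSMUSG00000026872, chr2:44983632-45117395 on mm10, minus strand) has a coding exon of 142 bases that most of its models share. The lines below give, from the GENCODE M21 transcripts, the last 30 bases of that exon in lower case and, in capitals, the next 30 bases of 4 models. Zeb2-212 runs on to the rest of the long coding sequence, Zeb2-204 reads straight into the intron, and Zeb2-223 and Zeb2-211 splice to terminal exons inside that intron.
Zeb2-212: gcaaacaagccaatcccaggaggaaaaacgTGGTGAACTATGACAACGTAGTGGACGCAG
Zeb2-204: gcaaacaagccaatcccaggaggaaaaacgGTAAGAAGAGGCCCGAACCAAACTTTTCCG
Zeb2-223: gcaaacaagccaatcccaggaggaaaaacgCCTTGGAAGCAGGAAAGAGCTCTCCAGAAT
Zeb2-211: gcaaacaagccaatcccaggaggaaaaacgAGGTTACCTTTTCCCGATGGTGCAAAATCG
The exon ends at position 45110016. The next base is 45023104 in Zeb2-212, 45110015 in Zeb2-204, 45106490 in Zeb2-223 and 45097197 in Zeb2-211.

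Runx1 (ENSMUSG00000022952, chr16:92601466-92826149, minus strand) has a distal promoter, P1, and a proximal promoter, P2, whose annotated starts lie 128.8 kb apart. The proteins that start from each differ at their first residues. The next pair of lines shows in capitals the 30 bases that precede the first exon part common to both, in lower case, for the P1 model Runx1-201 and the P2 model Runx1-202. The capitals of Runx1-202 hold its start codon.
Runx1-201: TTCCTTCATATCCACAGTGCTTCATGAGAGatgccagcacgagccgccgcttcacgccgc
Runx1-202: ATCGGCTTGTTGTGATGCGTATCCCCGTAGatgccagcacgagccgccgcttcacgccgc
The P1 model Runx1-207 does not reach that exon. After the same P1 exon, in lower case, it splices to a terminal exon at 92817708, shown in capitals.
Runx1-207: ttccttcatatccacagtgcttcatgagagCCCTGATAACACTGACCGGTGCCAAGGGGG

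The promoter windows of both starts are given from RefSeq (build GRCm38.p6), because the shares of models from each start are given below. Capitals mark matches on either strand to a PU box (GAGGAA), a RUNX core (TGTGGT), a ZEB E-box (CACCTG), the E-box of BHLHE40 (CACGTG) or an AP-1 site (TGANTCA). None of these matches overlap in the windows shown.
Runx1 P1, chr16:92826025-92826324, minus strand: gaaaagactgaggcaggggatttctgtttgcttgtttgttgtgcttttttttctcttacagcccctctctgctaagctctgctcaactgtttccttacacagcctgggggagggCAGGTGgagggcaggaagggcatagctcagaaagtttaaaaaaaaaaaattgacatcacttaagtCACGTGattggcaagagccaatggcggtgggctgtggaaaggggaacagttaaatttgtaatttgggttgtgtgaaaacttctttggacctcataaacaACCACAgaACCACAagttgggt
Runx1 P2, chr16:92697280-92697579, minus strand: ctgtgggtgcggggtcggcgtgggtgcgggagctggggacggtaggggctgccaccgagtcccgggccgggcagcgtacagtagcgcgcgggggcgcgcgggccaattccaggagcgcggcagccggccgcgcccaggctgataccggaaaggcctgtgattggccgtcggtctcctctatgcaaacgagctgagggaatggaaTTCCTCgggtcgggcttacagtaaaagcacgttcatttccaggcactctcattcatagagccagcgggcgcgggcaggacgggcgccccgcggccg
The P1 window held a ZEB E-box, a BHLHE40 E-box and 2 RUNX cores, and the P2 window held 1 PU box. GC made up 45% of the P1 window and 69% of the P2 window, against a median of 52.7% over all 32851 RefSeq promoter windows of 300 bases. RefSeq gave 14 windows for 7 of the 10 genes, and the Zeb2 windows partly overlap each other. A PU box stood in 7 of the 14, at Zeb2, Runx1 and Elf4, and in 28.3% of all windows. The Zeb2 windows chr2:45113230-45113529 and chr2:45113204-45113503 hold the same PU box, which is counted in both. The RUNX core stood in 1 of 14, that of Runx1 P1, and in 16.8% of all windows. ZEB E-boxes stood in 2 (20.2% of all), BHLHE40 E-boxes in 2 (7.15%) and AP-1 sites in 3 (7.81%). A match is a run of letters and was not tested as a binding site.

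All 10 genes were detected, defined as at least 1 TPM in both replicates, against 40.0% of protein-coding genes under the same rule. At 5 TPM all 10 passed, against 22.3%, and at 10 TPM 7 passed, against 14.3%. TPM is the authors' estimate of transcript abundance per unit of length, scaled to a fixed total in each library, and a value after ± is the SD of both replicates (n = 2). The median of the 10 genes was 24.3 TPM in replicate 1 and 16.4 in replicate 2, or 20.4 ± 5.54 TPM, and that of detected protein-coding genes was 7.38 ± 1.78 TPM. Zeb2 and Runx1 stood above all others, as the plot of gene levels shows. In bulk RNA of this kind, fewer cells with a transcript and less transcript per cell cannot be told apart. Together the 10 genes took 67529 and 56419 expected counts, of which Zeb2 alone took 72.8% and 70.5%.

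**Figure D1:**
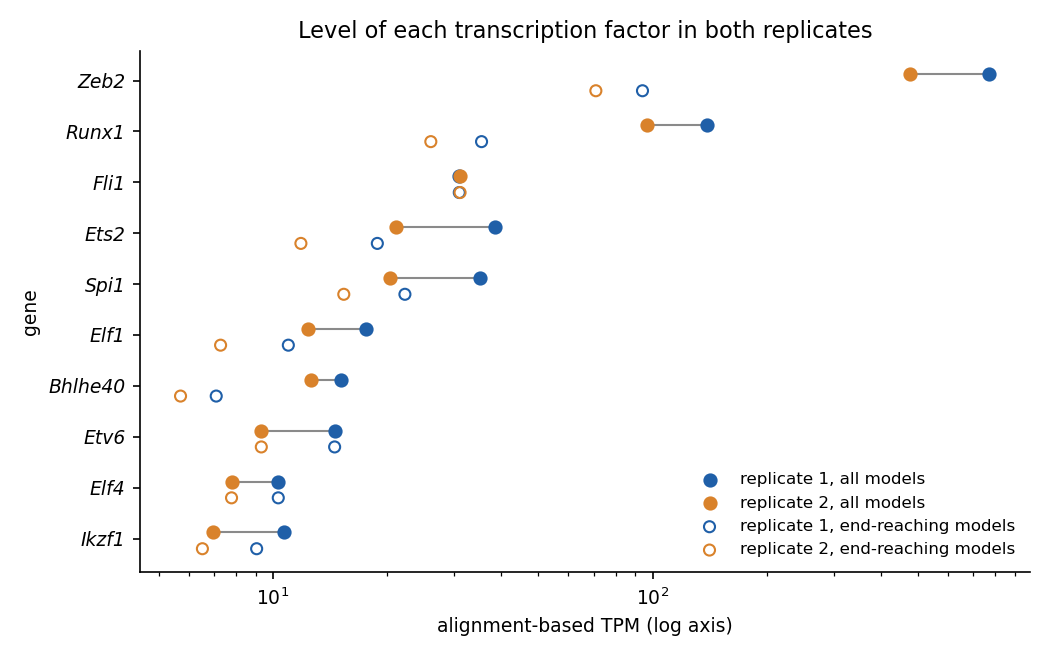
Level of each gene in alignment-based TPM on a log axis. Filled points are all models of the gene and open points are its end-reaching models, whose 3′ ends lie in the last 10% of the gene span, with replicate 1 in blue and replicate 2 in orange. Zeb2 stands at 771 and 476 TPM in all models and at 94.1 and 70.9 TPM in the end-reaching ones, whereas the filled and open points of Fli1 lie together.

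Zeb2, a zinc finger repressor that supports macrophage identity, measured 771 TPM in replicate 1 and 476 in replicate 2 (624 ± 209), the 99.6th percentile of detected protein-coding genes. Runx1 measured 139 and 97.0 TPM (118 ± 29.9), the 96.5th percentile. Zeb2 exceeded Runx1, and Runx1 exceeded Fli1, in both replicates without overlap and by more than the SD of either.

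Within the ETS group the levels lay closer together. Fli1 (ENSMUSG00000016087, chr9:32422204-32542861, minus strand), a factor of blood and endothelial cells, measured 30.97 and 31.11 TPM. Ets2 (ENSMUSG00000022895, chr16:95702075-95721051, plus strand), a target of MAP kinase signalling, measured 38.4 and 21.1 TPM. Spi1 (ENSMUSG00000002111, chr2:91082390-91115756, plus strand), the gene of PU.1, measured 35.2 and 20.3 TPM. These 3 genes overlapped in their replicate values and cannot be ordered. Elf1 (ENSMUSG00000036461, chr14:79481194-79582494, plus strand) measured 17.6 and 12.4 TPM, below Spi1 in both replicates by 1.85-fold on the means. Etv6 (ENSMUSG00000030199, chr6:134035700-134270158, plus strand) measured 14.6 and 9.32 TPM. Elf4 (ENSMUSG00000031103, chrX:48411046-48463132, minus strand) measured 10.3 and 7.78 TPM.

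Bhlhe40 (ENSMUSG00000030103, chr6:108660629-108666925, plus strand), a repressor of the bHLH-Orange class, measured 15.1 and 12.6 TPM. Ikzf1 (ENSMUSG00000018654, chr11:11685003-11772926, plus strand) was the lowest of the 10 on the mean, at 10.7 and 6.97 TPM, the 54.8th percentile of detected protein-coding genes. Its range overlapped that of Elf4. From Elf1 downward, no neighbouring pair in the order differed beyond its spread, and in all 3 of the 9 neighbouring pairs did. Of the 45 possible pairs, 41 stood in the same order in both replicates.

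9 of the 10 genes had a lower TPM in replicate 2, Fli1 being the exception, as had 91.8% of detected protein-coding genes. Within Fli1, Fli1-201 was also lower, at 30.97 and 21.18 TPM, whereas Fli1-202 had 0 and 9.94 TPM. The median log2 ratio of TPM + 1 between replicates was -0.53 for the 10 genes and -0.41 for detected protein-coding genes. Protein-coding genes other than mitochondrial ones held 25.5% of all TPM in replicate 1 and 17.8% in replicate 2. After TMM scaling of the counts, 6 of the 10 were lower in replicate 2, against 47.8% of protein-coding genes that averaged 10 or more counts. None of the 10 passed 1.5-fold between replicates, which 12.1% of those genes did. Bhlhe40 had the highest ratio, with 775 and 860 counts and a log2 ratio of 0.25, although it was lower by TPM, and Spi1 had the lowest, with 869 and 684 counts and a log2 ratio of -0.25.

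Most of the RNA assigned to Zeb2 belonged to models that end near the start of the gene. Models whose 3′ end lies in the first 25% of the gene span are called early-ending here, and those whose 3′ end lies beyond 90% of it end-reaching, a division chosen after the values were seen. Early-ending models held 78.5% and 70.2% of Zeb2 TPM (74.3% ± 5.85), and end-reaching models held 12.2% and 14.9%. Of the 4 genes with an early-ending model, Zeb2 alone had over 50% of its TPM there in both replicates. Over detected protein-coding genes with such a model, 3.93% did so.

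**Figure D2:**
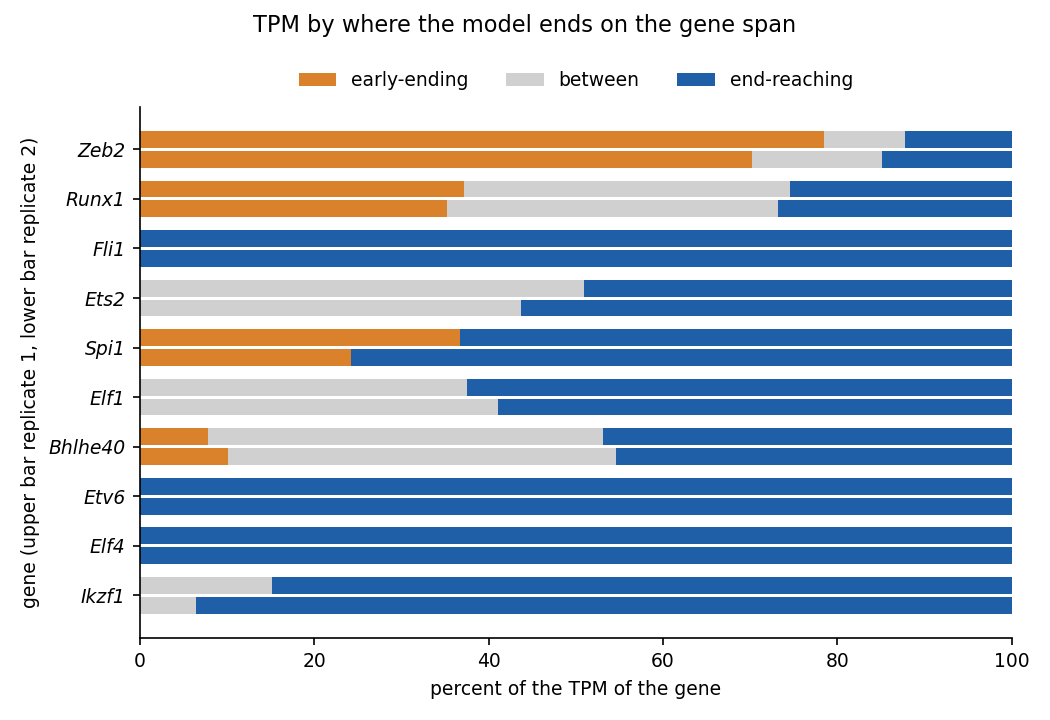
Percent of each gene's alignment-based TPM in early-ending models (3′ end in the first 25% of the gene span, orange), end-reaching models (beyond 90%, blue) or models between (grey), with replicate 1 above replicate 2. The early-ending share is 78.5% and 70.2% in Zeb2 and 37.2% and 35.2% in Runx1, and Fli1, Etv6 and Elf4 have TPM above 0 only in end-reaching models.

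3 models carried most of the early-ending signal of Zeb2, and all of them leave the coding path at the junction printed above. Zeb2-223, a processed transcript, had 274 and 145 TPM from 14133 and 9883 counts. Zeb2-204, a retained-intron model whose last exon runs 3673 bases, had 165 and 98.2 TPM from 12916 and 10193 counts. Zeb2-211, annotated as coding with 111 coding bases, had 162 and 88.2 TPM from 6513 and 4648 counts. Each of the 3 was above every long coding model in both replicates. The full-length coding models Zeb2-202, Zeb2-212 and Zeb2-214, each with 3645 coding bases, had 30.7 and 21.1, 30.6 and 19.0, and 25.9 and 18.2 TPM. All end-reaching models together came to 94.1 and 70.9 TPM (82.5 ± 16.4), still above the sum of such models in each of the other 9 genes.

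**Figure D3:**
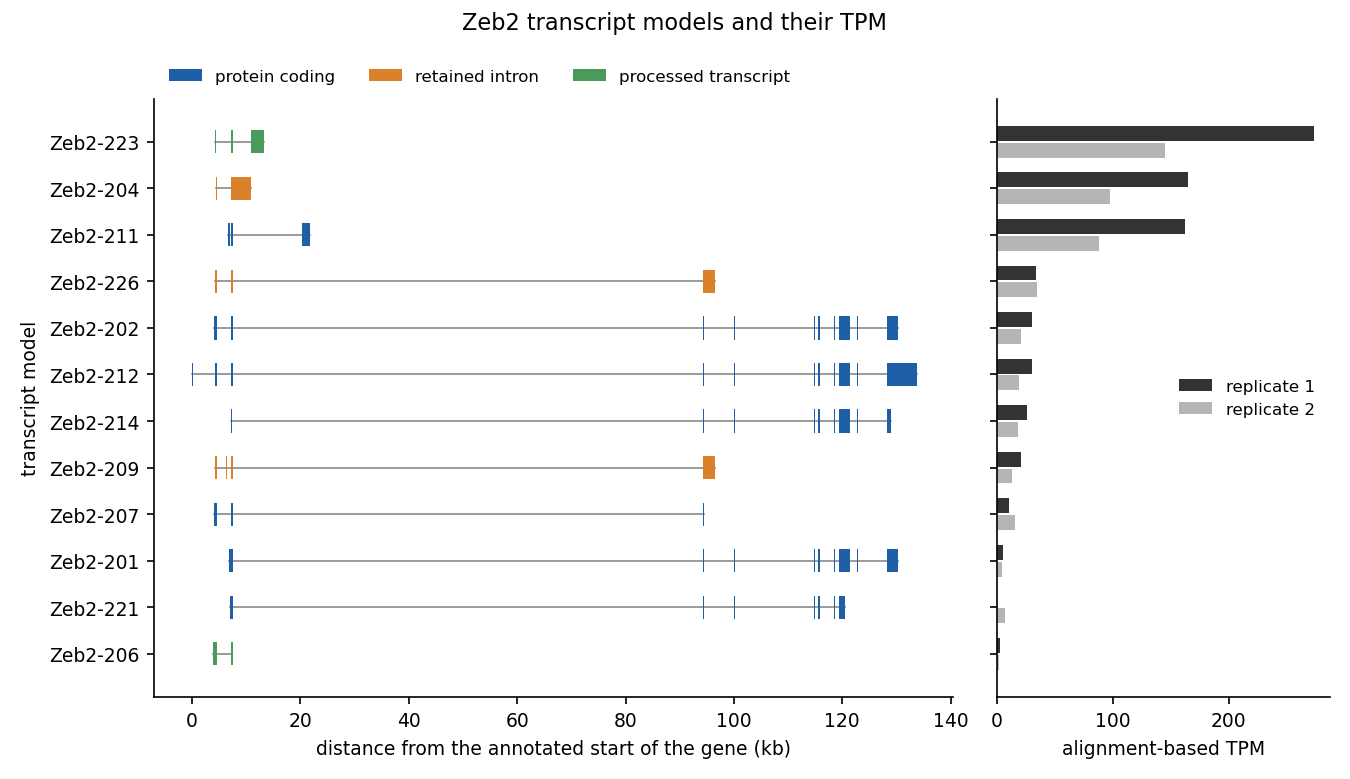
The 12 Zeb2 models with the highest mean TPM, drawn by distance from the annotated gene start in kb (boxes are exons, coloured by biotype), beside their alignment-based TPM in replicate 1 (dark) and replicate 2 (light). Zeb2-223, Zeb2-204 and Zeb2-211 end within 21.8 kb of the gene start and have 88.2 TPM or more in each replicate, and no full-length coding model exceeds 30.7 TPM.

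The short Zeb2 models are not equally well set apart. Zeb2-204 has 3525 bases and Zeb2-211 has 1615 bases that no other Zeb2 model holds. Zeb2-223 has 0, since other short models contain its exons. Past the shared exon, the sequence of Zeb2-204, Zeb2-223 and Zeb2-211 lies inside an intron of the full-length coding models. Reads from unspliced Zeb2 RNA over that sequence were not told apart from the short models. The early-ending share thus describes assignment to models, and not where Zeb2 RNA ends. By expected counts the early-ending share was 65.4% ± 4.46, and in the FASTQ-derived tables, a separate estimate by the authors, it was 53.9% ± 8.06, with 59.6% and 48.2%, so that over 50% was not reached there in replicate 2. With the limit at 10% of the gene span, which leaves Zeb2-211 out, it was 54.5% of TPM. Zeb2-226, a retained-intron model that ends 96.6 kb into the gene, had 34.1 and 35.1 TPM.

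By start, Zeb2 models whose annotated 5′ ends chain together within 500 nt formed 1 start site. The site 3.89 kb into the gene held 69.9% ± 0.13 of TPM, the site 6.22 kb into it held 25.7% ± 0.53, and the outermost, that of Zeb2-212, held 3.98% ± 0.013. These alignment-based shares differed between replicates by far less than between sites. In the FASTQ-derived tables the same sites held 48.4% ± 2.59, 24.0% ± 3.05 and 2.20% ± 0.14 of TPM. The start of Zeb2-218, with none in the alignment-based tables, held 19.4% ± 3.10 there. Zeb2-223, in the site 3.89 kb into the gene, has no bases of its own. The shares thus rest on assignment among models that share exons, and 5′ ends were not measured. Zeb2os, an antisense gene over the first exons (chr2:45110707-45114087, plus strand), had 63.6 and 55.0 TPM from 1385 and 1160 counts. In the FASTQ-derived tables it stood at 426 and 149 TPM. The strand setting of the counting is not given, so reads of Zeb2 and Zeb2os cannot be told apart where they overlap.

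Runx1 RNA also lay mostly outside its full-length coding models. Runx1-207, the P1 model with the early terminal exon of 2281 bases, led with 51.8 and 34.1 TPM, or 36.2% ± 1.39 of the gene. Runx1-206, a retained-intron model that starts at P2 and ends 139 kb into the gene, had 29.8 and 20.4 TPM. The coding models had less in both replicates. Runx1-201, the P1 form with 1395 coding bases, had 11.6 and 9.23 TPM, and Runx1-202, a P2 form that lacks an exon of 192 bases, had 12.4 and 5.48 TPM. Runx1-203, which starts within the P2 region and keeps that exon, had 11.4 TPM in both. These coding models overlapped in their replicate values.

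**Figure D4:**
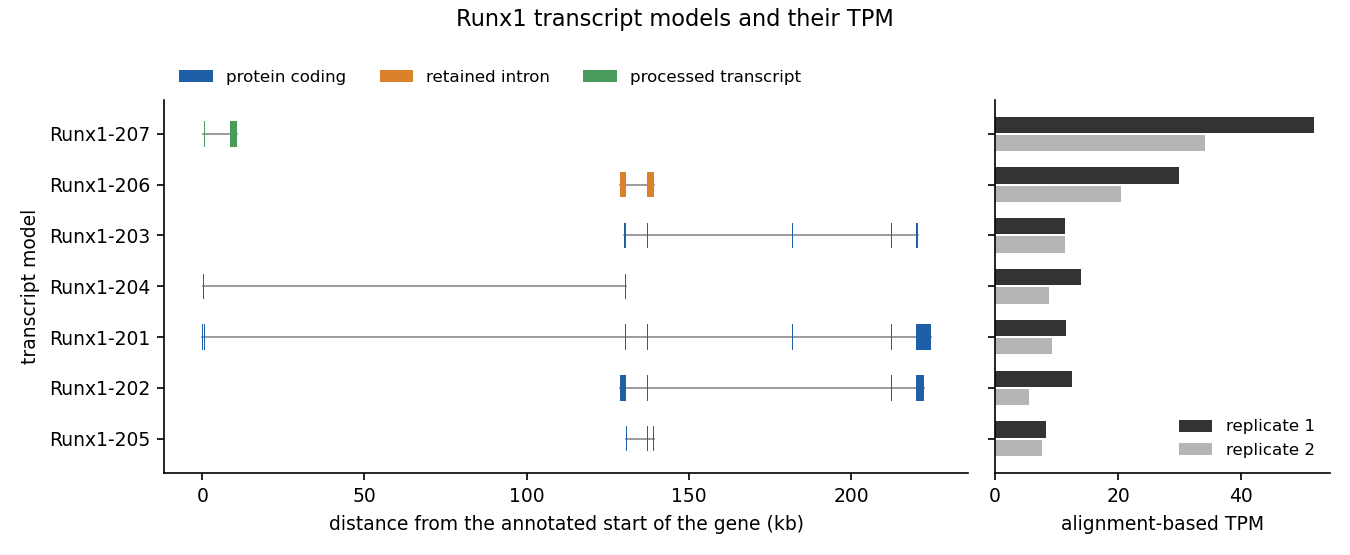
The 7 Runx1 models by distance from the annotated gene start in kb (boxes are exons, coloured by biotype), beside their alignment-based TPM in replicate 1 (dark) and replicate 2 (light). Runx1-207 at the left end stands at 51.8 and 34.1 TPM and Runx1-206 at 29.8 and 20.4, and each other model is at 13.9 TPM or less.

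The P1 start, with Runx1-201, Runx1-204 and Runx1-207, held 55.5% and 53.8% of Runx1 TPM (54.6% ± 1.23). The P2 start, with Runx1-202 and Runx1-206, held 30.3% and 26.7% (28.5% ± 2.56). Runx1-203 held 9.95% and Runx1-205, whose start is marked as incomplete, held 6.91%. P1 exceeded P2, taken without Runx1-203 and Runx1-205, in both replicates. By expected counts the gap was narrower, at 51.0% ± 1.46 for P1 and 41.1% ± 3.44 for P2. Most of the P1 share was Runx1-207, and 2281 of its 2538 bases lie only in its terminal exon. Reads from unspliced Runx1 RNA over that exon were not told apart from it. Neither 5′ ends nor junction reads were counted. The shares thus describe assignment to models, and not promoter use or which full-length protein was made.

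Spi1 showed a smaller early share. Spi1-202 and Spi1-204 start at the gene's outermost annotated end, and the main coding model Spi1-201 starts 13.7 kb further on. Spi1-203 has a start of its own at 14.4 kb, with 4.41% of TPM, but 42.7% in the FASTQ-derived tables. Spi1-201 and Spi1-204 join the same second exon. The lines show in capitals the 30 bases that precede that exon, in lower case, in a model of each start. All 30 capitals of Spi1-201 lie in its coding sequence, and those of Spi1-204 hold its own annotated start codon. Whether both models share a reading frame in that exon was not examined, so Spi1-204 cannot be taken here as a form of PU.1.
Spi1-201: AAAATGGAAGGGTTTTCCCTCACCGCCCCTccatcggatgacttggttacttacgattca
Spi1-204: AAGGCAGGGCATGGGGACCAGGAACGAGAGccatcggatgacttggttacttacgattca
Spi1-201, with 816 coding bases, had 18.6 and 11.6 TPM from 733 and 601 counts, or 55.1% ± 3.08 of the gene. The upstream start had 40.5% ± 5.42 of TPM but 13.2% ± 2.86 of counts, since its models are short. Most of it was Spi1-202, a processed transcript of 613 bases that ends 7.92 kb into the gene, with 12.9 and 4.92 TPM from 113 and 54 counts. Both values rest on few counts and lie far apart, so its share is known only roughly.

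The other ETS genes split into those read mainly through 1 model and those spread over several. Elf4-201 held 81.8% ± 6.37 of Elf4 TPM, and Elf4-202, from a start 8.96 kb downstream, held the rest. Fli1-201 held all Fli1 counts in replicate 1 and 91.0% in replicate 2, where Fli1-202 took 184 counts against 0. By TPM the share of Fli1-201 in replicate 2 was 68.1%. In the FASTQ-derived tables it was 71.3% in replicate 1 and 49.1% in replicate 2. Etv6-202, which has an additional exon of 159 bases and 1188 coding bases against 1455 in Etv6-201, held 60.7% ± 10.5 of Etv6 TPM. It exceeded Etv6-201 in both replicates, with 9.91 and 4.97 TPM against 1.85 and 2.04.

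Elf1 was led by Elf1-203, a processed transcript that stops 57.6 kb into the gene, with 6.60 and 5.07 TPM. Its coding models Elf1-201 and Elf1-202 had 5.16 and 2.62, and 4.78 and 3.43 TPM. By counts no Elf1 model led in both replicates, with 447 and 301 counts for Elf1-201, 379 and 360 for Elf1-202 and 365 and 370 for Elf1-203. Models from the start 34.5 kb downstream of the first held 74.7% ± 5.75 of Elf1 TPM. Wbp4, a protein-coding gene on the other strand that overlaps the first Elf1 exon, had 9.97 and 9.48 TPM.

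Ikzf1 RNA lay mostly in end-reaching models, with 84.9% and 93.5% of TPM. Ikzf1-204 held 76.1% ± 5.65 of Ikzf1 TPM and 85.3% of its counts, with 820 and 788. Ikzf1-203, which adds an in-frame coding exon of 60 bases, had 132 and 113 counts. That exon is shown in capitals with the 30 bases before and after it (chr11:11740950-11741009, plus strand).
Ikzf1-203: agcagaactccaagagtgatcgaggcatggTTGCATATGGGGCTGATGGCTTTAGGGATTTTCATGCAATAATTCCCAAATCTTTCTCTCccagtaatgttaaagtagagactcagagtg
Ikzf1-201 and Ikzf1-202, which lack a coding exon of 261 bases present in Ikzf1-204, had at most 2.26 and 19.9 counts in a replicate. In the FASTQ-derived tables the end-reaching models held only 47.1% and 35.0% of Ikzf1 TPM. Ikzf1-204 had 31.1% and 23.5% there, and Ikzf1-206, a model of 242 bases with 0 counts in the alignment-based tables, had 4.87% and 49.6%.

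Models annotated as retaining an intron held 26.2% and 27.1% of the TPM of the 10 genes (26.7% ± 0.61). Detected protein-coding genes with such a model had 35.1% ± 0.75 of theirs in it. By expected counts the order was the reverse, at 29.2% ± 0.70 for the 10 genes and 24.5% ± 0.59 for those genes. Only 5 of the 10 genes have such a model, and the pooled share of the 10 also counts those without one. The sets compared are therefore unlike. Ets2 had the highest share, at 65.4% and 64.4%, spread over 4 models, of which Ets2-205, a single exon at the gene's end, had 7.57 and 4.35 TPM. Bhlhe40 had 49.1% and 54.6%, nearly all in Bhlhe40-204, a single-exon model with 6.25 and 5.60 TPM beside 7.09 and 5.71 for the coding Bhlhe40-201. Zeb2 had 28.5% and 30.8%, Runx1 21.4% and 21.1%, and Etv6 13.5% and 6.12%. Only Ets2 had over 50% in both replicates, which 12.6% of detected protein-coding genes with a retained-intron model did. By expected counts Ets2 fell short of that, at 43.9% and 40.3%, and Bhlhe40 had 42.4% and 45.2%. In the FASTQ-derived tables both passed it in each replicate, Ets2 with 72.2% and 77.5% and Bhlhe40 with 54.8% and 51.6% of TPM. Without Zeb2 the share of the remaining 9 was 19.8% ± 1.16.

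Of the 70 models, 12 had 0 counts in both replicates, 9 of them from Zeb2. Of the 12, 4 had counts in both FASTQ-derived tables. One of these was Zeb2-218, a model of 453 bases, with 78.7 and 79.4 FASTQ-derived TPM, or 17.2% and 21.6% of Zeb2, more than any other Zeb2 model in replicate 2 of those tables. The leading model of each gene was annotated as coding in 7 of the 10 and held over 50% of TPM in 5. On the mean of both replicates the FASTQ-derived tables gave the same leading model in 5 of 10, but in each replicate only for Elf1 and Elf4. In both replicates they put Spi1-203 first for Spi1, Etv6-204 for Etv6 and Runx1-204 for Runx1, all of them models of under 1000 bases. For Fli1, Ikzf1, Zeb2, Ets2 and Bhlhe40 the first model in those tables differed between the replicates. Gene levels differed less between the kinds of table. The median log2 ratio of FASTQ-derived to alignment-based TPM was -0.40 ± 0.15 for the 10 genes and -0.54 ± 0.20 for detected protein-coding genes. Spi1 and Etv6 stood higher in the FASTQ-derived tables in both replicates, and 7 of the 10 stood lower.

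Counts were also assigned to annotated genes that lie over the 10 loci. Reads from unspliced RNA of a host and from a gene inside its introns were not told apart. Of 22 such genes, 13 had a mean of at least 1 TPM, over 6 of the 10 loci. By counts the largest lay inside introns of Etv6 on its own strand. Gm43982 (chr6:134073354-134075182) and Gm43984 (chr6:134084601-134087464) are of the class TEC, which GENCODE keeps for loci awaiting experimental support. Gm43982 had 1752 and 1183 counts, and Gm43984 had 2185 and 1587. Their sum was 2.77 and 2.47 times the 1422 and 1121 counts of Etv6 itself. The nested genes exceeded the host in both replicates in 3.61% of 526 detected protein-coding genes with a same-strand TEC gene inside them, where the median ratio was 0.110 and 0.105. This comparison was chosen after the values were seen.

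Fli1 holds 4 such genes, Gm37082, Gm37474, Gm38346 and Gm38292, which had mean levels from 5.99 to 9.88 TPM. Their summed counts were 0.899 and 0.632 times those of Fli1, below it in both replicates. In the FASTQ-derived tables the ratio was 1.12 and 1.49, so the order of host and nested genes depends on the table. On the opposite strand, Gm17088, Gm17089 and 1700051K13Rik over Etv6, Gm26626 over Runx1 and Gm12000 over Ikzf1 had mean levels from 2.33 to 5.89 TPM. As with Zeb2os, these cannot be told apart from RNA of the gene they overlap.

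The rest of the ETS family was measured for comparison. 8 of 20 further ETS genes were detected, beside 40.0% of protein-coding genes. Etv3, an ETS repressor, had 148 and 62.3 TPM, above every ETS gene among the 10 in both replicates. Elk4 had 21.8 ± 5.85, Elf2 20.0 ± 6.93 and Elk1 10.2 ± 0.69 TPM. Gabpa had 8.27 ± 1.03, Elk3 6.32 ± 0.80, Spic 3.17 ± 1.52 and Erf 2.76 ± 1.17 TPM. Ets1, the lymphoid paralog of Ets2, stayed below 1 TPM in both replicates with 49 and 35 counts. Spib, the B cell relative of Spi1, had 2 counts in each replicate, too few for a level.

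**Figure D5:**
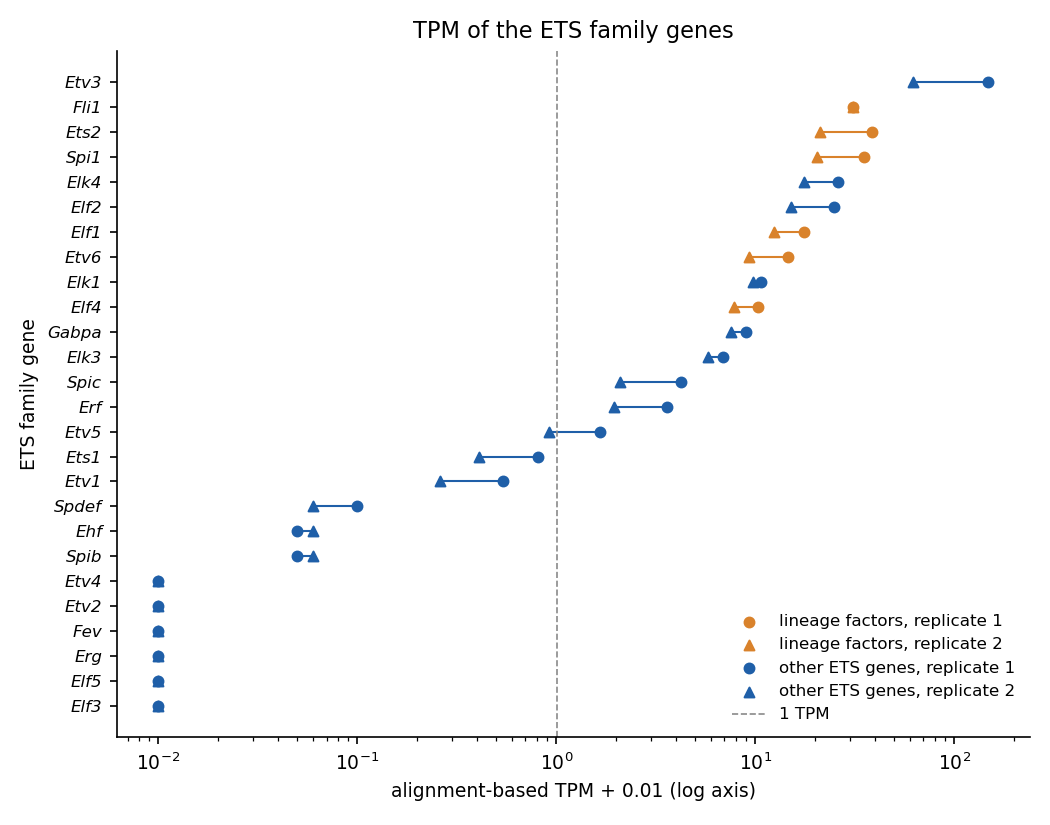
Alignment-based TPM plus 0.01, on a log axis, of the 6 ETS lineage factors (orange) and 20 other ETS genes (blue), with circles for replicate 1 and triangles for replicate 2, and a dashed line at 1 TPM. Etv3 lies highest at 148 and 62.3 TPM, all 6 lineage factors lie right of the line, and 6 of the other genes are listed at 0.

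Among paralogs of the remaining 4 factors, 4 of 8 were detected, beside 40.0% of protein-coding genes. Bhlhe41 led at 9.12 ± 3.94 TPM, with Ikzf5 at 4.25 ± 0.62 and Runx2 at 2.72 ± 0.52. Ikzf3, a lymphoid Ikaros relative, was listed at 0. Each of these was below its counterpart among the 10 on the mean. All 21 listed partners and co-regulators were detected, against the same 40.0%, led by Chd4, an ATPase of the NuRD complex, at 131 ± 17.6 TPM. The corepressor Ncor1 had 75.2 ± 6.40 TPM and the AP-1 subunit Jun 73.0 ± 37.5.

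All 26 genes listed as textbook PU.1 targets were detected, against 40.0% of protein-coding genes, with a median of 100 ± 29.1 TPM. Lyz2, the lysozyme of myeloid cells, had 1820 and 1264 TPM, Mpeg1 645 and 399, and Cd14 570 and 418. Of 24 other myeloid factors 17 were detected, against the same 40.0%. Tfec led at 295 ± 3.89, with Id2 at 124 ± 50.8 and Mef2a at 72.3 ± 15.2 TPM. Tfec stood above every gene of the 10 but Zeb2 in both replicates. The 7 not detected were Klf4, Cebpd, Meis1, Batf3, the granulocytic factors Cebpe and Gfi1 and the progenitor factor Myb. Klf4 had 0.51 and 0.64 TPM and Cebpd 0.78 and 0.63. Meis1 and Batf3 fell below 1 TPM in replicate 2 only.

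Factors and markers of other lineages were low. The share of all protein-coding genes detected, 40.0%, stands beside each count below. Of the erythroid and megakaryocyte factors 1 of 7 was detected, Tal1 at 1.75 ± 0.16 TPM, and Gata1 was listed at 0. No B cell factor of 5 was detected, and Pax5 and Ebf1 were listed at 0. Zbtb7b was the 1 detected of 9 T and NK cell factors, at 2.64 ± 0.75 TPM, and none of 7 stromal and endothelial factors was. The label of macrophage was met by 8 of 10 markers, with a summed level of 3581 and 2319 TPM. Lyz2 and Mpeg1 led this list too, followed by Csf1r, the receptor of macrophage colony-stimulating factor, at 448 and 308 TPM, and Cx3cr1 and Marco were the 2 not detected. Lyz2, Mpeg1, Csf1r and other markers also stand in the list of PU.1 targets, so these lists are not independent. The B, T, NK, neutrophil, erythroid, dendritic, mast cell, fibroblast and endothelial lists each summed to at most 4.86 TPM in a replicate, with only Ighm (1.98 ± 1.14) and Kdr (2.95 ± 1.18) detected. The megakaryocyte list summed to 39.0 and 31.9 TPM, nearly all from Pf4 at 32.7 ± 3.58, which macrophages are also known to express, with Gp9 at 1.13 ± 0.16 TPM. Cd3e, Ncr1, Ly6g and Elane were at 0 in both replicates. Which of these markers were detected depended on the table. By FASTQ-derived TPM, Cd3d (2.38 and 4.28), Pecam1 (2.58 and 5.24) and Alas2 (2.26 and 1.58) passed as well, and Ighm and Gp9 did not.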

How the data were processed

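Total RNA-seq after ribosomal RNA depletion was deposited for 2 libraries of 1 group. Per the labels, the build is mm10 and the annotation GENCODE M21. For the aligner, the quantifiers and their strand setting, names and versions were not given in the sources used here. The authors' alignment-based gene and transcript tables hold, per the file headers, expected counts (estimated, not whole numbers), TPM and FPKM, and the authors' FASTQ-derived transcript tables hold estimated counts and TPM. The libraries held 19630046 and 18434601 expected counts, and 26929533 and 33536257 in the FASTQ-derived tables. Of the expected counts, 0.672% and 0.196% lay outside annotated genes (phiX, spike-ins) and were left out. Median detected protein-coding genes had 418 and 396 counts. No molecular identifiers are mentioned, so this depth speaks for counting error only.

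The genes and lists were chosen with earlier results of these data known. The text names the 10 genes, the 3 highest detected genes of each list, every detected ETS gene and gene of another lineage, and genes overlapping the 10 at a mean of at least 1 TPM. Cx3cr1, Marco, Ets1, Spib, Ikzf3, Cebpe, Gfi1, Myb, Cd3d, Pecam1, Alas2 and genes listed at 0 were named after their values were seen. So were Klf4, Cebpd, Meis1 and Batf3. Genes were detected at 1 TPM in both replicates. Model shares came from transcript TPM, gene levels from the gene tables. FASTQ-derived TPM were summed per gene. Their ratio to alignment-based TPM was taken as log2 with a pseudocount of 1. Start sites joined annotated 5′ ends within 500 nt. Expected counts were rounded for edgeR 4.0.16 (TMM, prior count 2, mean count of at least 10, R 4.3.3) to give ratios between replicates, with DESeq2 1.42.0 size factors as an alternative. These ratios were tested on simulated data. With 1 library a side they are descriptions and carry no p-value.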

Additional observations from a re-analysis of the deposited data

How the results depend on the processing

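The median level of the 10 genes was 93.8 TPM when rescaled to protein-coding genes without mitochondrial ones and 26.1 in FPKM, and ranged from 16.4 to 24.3 TPM without 1 or the other replicate. All 10 genes were detected at thresholds of 0.1 and 5 TPM and in the FASTQ-derived tables, and 7 at 10 TPM. The retained-intron share of the 10 genes was 29.2% of expected counts and 19.9% of FASTQ-derived TPM. Without Zeb2, an alternative chosen after seeing the data, it was 19.8% of TPM, and leaving out a replicate gave 26.2% to 27.1%. The median leading-model share of 50.6% was 66.5% by expected counts and 33.6% in the FASTQ-derived tables, where 5 of the 10 genes had the same leading model. The share of Runx1 P1 was 45.1% with 5′ ends joined within 100 nt, which parts Runx1-204 from the others, 51.0% by expected counts and 62.8% in the FASTQ-derived tables. The median log2 ratio of FASTQ-derived to alignment-based level ranged from -0.51 to -0.29 without a replicate. Without a replicate all 10 genes stayed detected, and 42 to 44 pairs kept the order of the mean. By FASTQ-derived TPM 37 of 45 pairs kept it, and by expected counts 35. With end-reaching models alone, added after seeing the data, 39 of 45 pairs kept the order. Genes lower in replicate 2 numbered 6 to 9 over the scalings, and Bhlhe40, Elf4 and Ikzf1 turned from higher to lower by TPM. Among values of single genes and lists, 47 were classed as moved and 72 as the same, although list counts and ratios between replicates have no replicate spread. The cause of these shifts was not tested. No paired analysis was possible because there is 1 group. Depth limits models with few counts, such as Spi1-202, Fli1-202 and Ikzf1-203.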
